A study of Mus musculus with 18 samples.

Results

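CLP, DN3 and DN4 are fractions of T-lineage cells that were sorted from mouse lymphomas, and the 3 arrays of the CLP fraction are compared here with the 3 arrays of DN3 and the 3 arrays of DN4. These are 9 of the 18 arrays of the series, chosen by their titles. The DN3 and the DN4 array of a replicate number were averaged, which gave 3 values for each side. All 9 arrays come from lymphomas of the thymus in Lck-Cre transgenic mice that were sublethally irradiated, received bone marrow carrying a retrovirus for NPM-ALK, and were killed when moribund. NPM-ALK is the fusion tyrosine kinase known from anaplastic large cell lymphoma. The Lck promoter confines Cre, and with it the onset of kinase expression, to early T cells. The series names 3 lymphomas as the source of the fractions. The other groups of 3 arrays each are the DN2 and DN1 fractions of the same kind of lymphoma and LSK cells, a lineage-negative KIT-positive and SCA1-positive population with blood stem cells in it, from the bone marrow of healthy wild-type mice of 18 months, and their levels are given below only beside those of CLP, DN3 and DN4.

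The description fields contradict the titles. They place all 3 CLP and all 3 LSK arrays in NIPA KO mice and every DN3, DN4, DN2 and DN1 array in wild-type mice. They give a dose of 4 Gy for 2 of 3 CLP, 3 of 3 DN3, 0 of 3 DN4, 3 of 3 DN2, 3 of 3 DN1 and 1 of 3 LSK arrays. The titles and genotype fields, which say nothing of NIPA, were followed. If the descriptions were right, the sort and this genotype could not be told apart in the comparison, nor in the levels of DN2, DN1 and LSK set beside it. Zc3hc1, the gene that encodes NIPA, read 8.08, 8.16 and 8.37 on CLP arrays 1, 2 and 3, against 8.25, 8.65 and 8.32 on the DN3 arrays and 8.06, 8.13 and 8.30 on the DN4 arrays (log2 signal). The groups overlapped. Whether its probe set lies in a deleted stretch is not stated, and the level cannot settle which label is right.

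In the normal immune system the common lymphoid progenitor, CLP, is a bone marrow cell marked by IL7Rα and low KIT and SCA1 that can give rise to B, T and NK cells. Thymocytes without CD4 and CD8 pass through 4 double-negative stages defined by CD44 and CD25. At DN3 (CD25-positive, CD44-negative) Notch signals and the rearrangement of the T cell receptor beta chain lead to the pre-TCR checkpoint, and at DN4 CD25 has been lost again. The names here refer to the surface markers of lymphoma cells in a sort, not to normal stages.

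Few genes passed the test between the CLP fraction and DN3 and DN4. Of 22180 genes, limma called 14 at an adjusted p under 0.05 (0.0631%), 8 higher in CLP (0.0361%) and 6 lower (0.0271%). The genes that rose were Ifitm3, Snora34, Scrg1, Muc13, Slc15a1, Igfbp4, Tgm2 and Ociad2, by 2.43-fold to 4.57-fold. Those that fell were Mir505, Mir5123, Il2ra, Atp8a2, Drd5 and Zxda. At an unadjusted p under 0.05 there were 1991 genes (8.98%), 815 higher (3.67%) and 1176 lower (5.3%). The measured means of the 14 genes were at least 2-fold apart, as those of 126 genes were (0.568%), but for Zxda, whose CLP arrays lie under the array background, only a fold of at least 1.64 is shown. In all 14 the 3 CLP arrays lay outside the range of the 6 DN3 and DN4 arrays. Such separation was found for 1531 genes (6.9% of those tested), 596 with CLP above and 935 with CLP below.

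A pair of microRNA genes fell in CLP, Mir505 on chromosome X and Mir5123 on chromosome 4. Their CLP values lie under the array background, so the size of each fall is known only as a bound. MicroRNAs are short RNAs that pair with messenger RNAs through their seed, bases 2 to 8, and lower their translation or stability. The mature sequences are shown because the seed decides which messages such an RNA could pair with. They were taken from RefSeq (build GRCm38.p6), are written 5′ to 3′ with the seed in capitals, and lie on the minus strand at chrX:60394416-60394437, chrX:60394451-60394473 and chr4:40850057-40850080.
mmu-miR-505-3p: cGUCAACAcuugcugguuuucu
mmu-miR-505-5p: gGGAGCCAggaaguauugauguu
mmu-miR-5123: uGUAGAUCcauaugccauggugug
The 3 seeds differ from each other. A probe set for a miRNA gene on this array does not tell the arms apart, nor the mature RNA from its precursor or from the transcript it is cut from. Both genes were named after their values were seen, since the rule for named genes leaves out small RNA genes.

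Mir5123 read 3.73, 3.57 and 3.90 on CLP arrays 1 to 3, against 7.09, 6.65 and 6.68 in DN3 and 7.45, 7.18 and 6.97 in DN4. The nearest CLP and DN3 or DN4 arrays were 2.75 log2 units apart. The CLP arrays were below the background of the array, taken as the level that 95% of 1108 probe sets for olfactory receptors stay under (5.47 to 5.68 over the 9 arrays). The fitted difference was -3.27 (SE 0.16, adjusted p = 0.000812), and since CLP is at background, the data give only that Mir5123 was at least 2.59-fold lower. Of the 14 genes it was the one called under all 14 alternative settings. DN2 averaged 5.41 ± 0.44 and DN1 5.49 ± 0.84 (SD, n = 3 each), both near background, so no order among CLP, DN2 and DN1 can be read.

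Mir505 read 3.50, 3.41 and 3.85 in CLP, against 7.24, 6.44 and 6.40 in DN3 and 8.03, 6.86 and 6.72 in DN4. The groups were again far apart, though the DN4 arrays themselves were spread over 1.32 log2 units. The fitted difference was -3.36 (SE 0.28, adjusted p = 0.00981), a fall of at least 2.49-fold. DN2 averaged 7.29, DN1 6.44 and LSK cells 6.57, so of the 6 groups only CLP was at background.

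Mir5123 lies inside a protein-coding gene in the RefSeq annotation, B4galt1, which encodes a galactosyltransferase of the Golgi. B4galt1 read 6.49, 7.68 and 6.61 in CLP, against 8.74, 8.51 and 8.38 in DN3 and 8.63, 8.67 and 8.73 in DN4. CLP was below on all 3 arrays by -1.69 (SE 0.29), but array 2 stood apart from the other two and the gene did not pass the test (adjusted p = 0.15). B4galt1 averaged 6.68 in DN2 and 6.63 in DN1. Among all 478 miRNA genes measured, Mir5123 and Mir505 were the calls, and 16 had all CLP arrays above and 12 all CLP arrays below DN3 and DN4 (3.35% and 2.51%, against 2.69% and 4.22% of all genes). Of these 478 genes, 306 were below background on all 9 arrays.

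**Figure D1:**
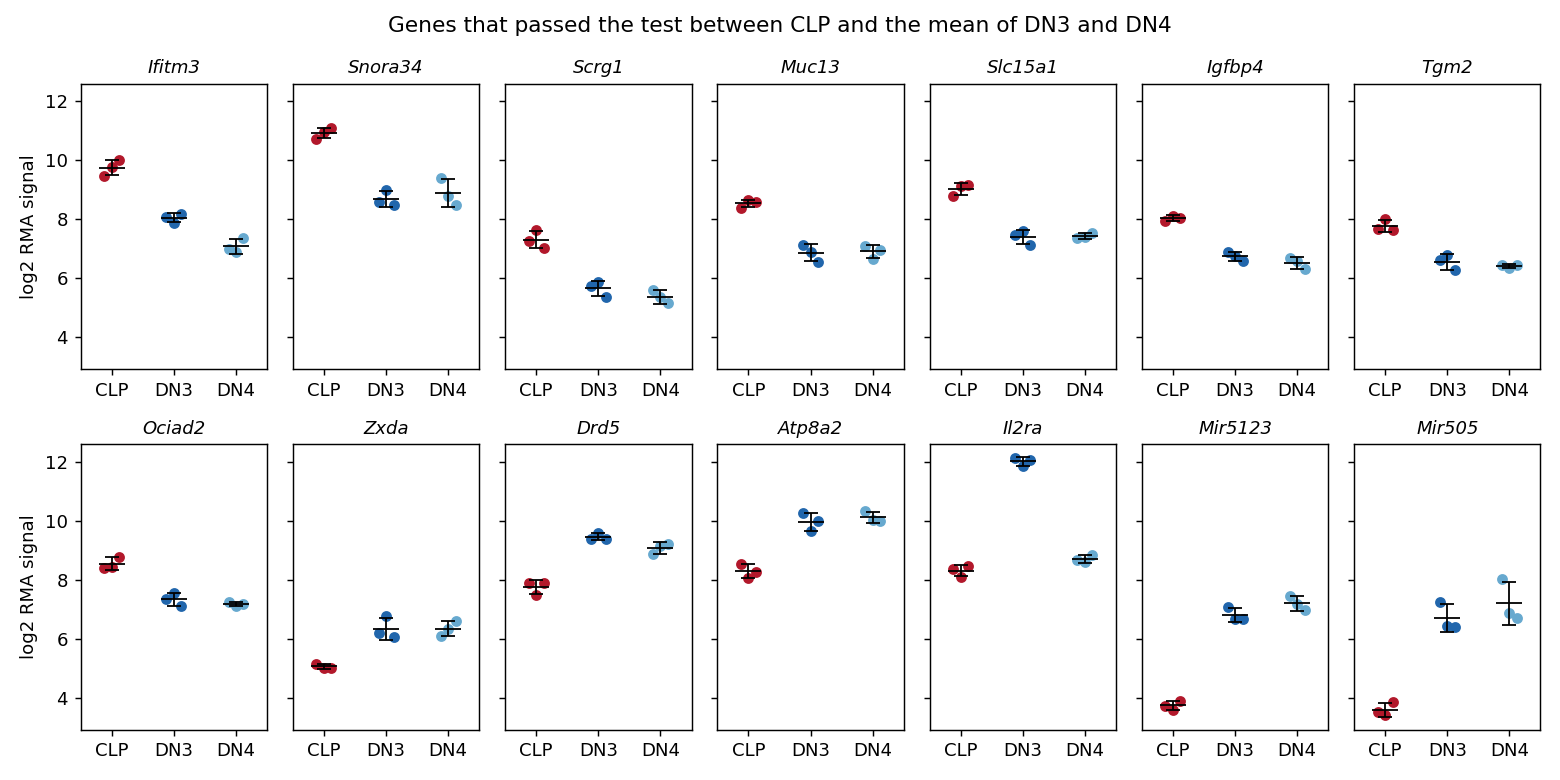
Log2 RMA signal (vertical axis) of the 14 called genes on each of the 3 CLP, 3 DN3 and 3 DN4 arrays. Points are arrays, the long bar is the mean and the whiskers are 1 SD. CLP lies outside DN3 and DN4 for every gene, and for Il2ra the CLP arrays are near DN4 (8.09 to 8.46 against 8.61 to 8.85) and far from DN3.

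Ifitm3 on chromosome 7, an interferon-induced membrane protein that hinders virus entry, rose in CLP. It read 9.47, 9.78 and 9.99 on the CLP arrays, against 8.06, 7.87 and 8.18 in DN3 and 6.99, 6.87 and 7.35 in DN4. CLP was highest, DN3 in the middle and DN4 lowest, without overlap. The difference was 2.19 (SE 0.18, 4.57-fold, adjusted p = 0.00901). DN2 averaged 10.04 and DN1 10.65, both above the 9.75 ± 0.26 of CLP, and in 1 model of the 15 lymphoma arrays the gap between CLP and DN2 did not pass the test (-0.29, adjusted p = 0.447). Ifitm1, its neighbour in function, read 6.61, 6.43 and 6.35 in CLP, against 5.48, 5.46 and 5.26 in DN3 and 5.67, 5.29 and 5.40 in DN4. That gene missed the threshold (difference 1.04, adjusted p = 0.0634) and was under background on 5 of the 6 DN3 and DN4 arrays.

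The promoter of Ifitm3 is printed because it holds matches for interferon and STAT motifs. That of Muc13, which rose too, is printed as the only other one with a match. The rest of the 7 called genes whose promoter is in the table held none of the 6 motifs searched. The windows run from 250 bases before to 30 bases after the start site (RefSeq, GRCm38.p6), at chr7:141010715-141010994 on the minus strand and chr16:33793787-33794066 on the plus strand. Capitals mark motif matches.
Ifitm3: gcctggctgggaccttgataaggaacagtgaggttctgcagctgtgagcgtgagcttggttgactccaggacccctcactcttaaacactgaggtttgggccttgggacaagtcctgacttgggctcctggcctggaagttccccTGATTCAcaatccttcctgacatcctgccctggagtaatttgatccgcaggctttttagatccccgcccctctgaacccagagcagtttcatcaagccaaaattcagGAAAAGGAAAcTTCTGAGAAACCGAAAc
Muc13: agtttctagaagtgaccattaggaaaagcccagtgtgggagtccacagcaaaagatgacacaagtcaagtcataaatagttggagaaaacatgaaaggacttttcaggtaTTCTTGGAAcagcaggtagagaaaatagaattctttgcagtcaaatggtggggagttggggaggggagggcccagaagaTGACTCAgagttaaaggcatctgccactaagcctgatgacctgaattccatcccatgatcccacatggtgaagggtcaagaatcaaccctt
The Ifitm3 window holds the core of the interferon response element (GAAA, any 2 bases, GAAA) at bases 3 to 12 and 20 to 29 after the start, the STAT motif TTCNNNGAA at bases 14 to 22, overlapping the second, and the AP-1 motif TGANTCA at -105 to -99. On Muc13 the STAT motif lies at -140 to -132 and the AP-1 motif at -61 to -55, and the window of a second Muc13 start site has an AP-1 match at -179 to -173. On either strand, 3.28% of 32851 such windows hold the interferon core, 7.83% the STAT and 7.46% the AP-1 motif. The motifs of RBPJ, spelled TGGGAA, of RUNX, spelled TGTGGT, and of GATA factors, spelled AGATAA, are held by 23.8%, 15.6% and 10.7% of windows and by none of those of the 7 called genes whose promoter is in the table. A match of letters is a description and shows no binding.

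Muc13 and Slc15a1, known from epithelia, were 2 of the genes that rose. Muc13 on chromosome 16, a transmembrane mucin, read 8.39, 8.64 and 8.57 in CLP, against 7.13, 6.88 and 6.55 in DN3 and 7.09, 6.65 and 6.95 in DN4 (difference 1.66, SE 0.15, 3.15-fold, adjusted p = 0.0119). Slc15a1 on chromosome 14, the proton-coupled peptide transporter of the intestine, read 8.79, 9.14 and 9.14 in CLP, against 7.46, 7.61 and 7.13 in DN3 and 7.35, 7.39 and 7.53 in DN4. Its difference was 1.61 (SE 0.14, 3.06-fold, adjusted p = 0.0119). For both genes DN3 and DN4 were alike (DN3 minus DN4 was -0.04 for Muc13 and -0.03 for Slc15a1), and CLP stood above both.

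Igfbp4 on chromosome 11, a secreted protein that binds insulin-like growth factors, read 7.92, 8.12 and 8.05 in CLP, against 6.89, 6.75 and 6.57 in DN3 and 6.67, 6.57 and 6.29 in DN4 (2.65-fold, adjusted p = 0.0191). Tgm2 on chromosome 2, a transglutaminase that cross-links proteins, read 7.66, 7.99 and 7.62 in CLP, against 6.61, 6.79 and 6.26 in DN3 and 6.43, 6.32 and 6.43 in DN4 (2.43-fold, adjusted p = 0.0389). Scrg1 on chromosome 8, a secreted protein first described in scrapie-infected brain, read 7.24, 7.62 and 7.03 in CLP, against 5.73, 5.85 and 5.35 in DN3 and 5.58, 5.34 and 5.14 in DN4 (3.48-fold, adjusted p = 0.0248). The lowest CLP array was above the highest DN3 or DN4 array by 1.03 log2 units for Igfbp4, 0.83 for Tgm2 and 1.18 for Scrg1. Scrg1 was under background on 3 of the 6 DN3 and DN4 arrays, so its fold rests in part on values that were not measured above background.

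Ociad2 on chromosome 5, a membrane protein with an OCIA domain, read 8.38, 8.44 and 8.79 in CLP, against 7.35, 7.55 and 7.12 in DN3 and 7.25, 7.10 and 7.17 in DN4 (difference 1.28, 2.43-fold, adjusted p = 0.0407). Its level in DN2 (7.44), DN1 (7.55) and LSK cells (6.78) was near that of DN3 and DN4, and CLP exceeded DN2 by 1.09 (adjusted p = 0.000355) and DN1 by 0.99 (adjusted p = 0.000366) in the model of 15 arrays. Snora34 on chromosome 15, a small nucleolar RNA of the class that guides pseudouridylation, was named after its values were seen. It read 10.73, 10.95 and 11.08 in CLP, against 8.57, 9.003 and 8.49 in DN3 and 9.40, 8.79 and 8.47 in DN4 (4.39-fold, adjusted p = 0.00901). Against the other fractions this RNA did not separate CLP, since replicate 1 of DN2 read 11.29 and replicate 1 of DN1 10.61, beside 8.63 to 9.44 on the other 4 arrays. Snora34 lies inside Kansl2 and overlaps Mir1291. Kansl2, a subunit of a histone acetyltransferase complex, read 8.22, 8.84 and 8.79 in CLP, against 9.02, 8.59 and 8.75 in DN3 and 8.63, 8.58 and 9.22 in DN4, with overlap.

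Il2ra, which encodes CD25 and was used in the sort, fell by 2.05 on the log2 scale (SE 0.15, adjusted p = 0.0061). It read 8.38, 8.09 and 8.46 in CLP, against 12.14, 11.87 and 12.05 in DN3 and 8.66, 8.61 and 8.85 in DN4. The gap was one with DN3, at -3.71 (adjusted p = 8.08e-05), whereas against DN4 it was -0.40 (adjusted p = 0.479). As a sort marker the gene checks the labels and is no finding.

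Atp8a2 and Drd5 were the remaining falls well above background. Atp8a2 on chromosome 14, a flippase that moves phospholipids across membranes, read 8.53, 8.06 and 8.28 in CLP, against 10.25, 9.65 and 10.00 in DN3 and 10.32, 10.03 and 10.00 in DN4 (difference -1.76, SE 0.17, adjusted p = 0.0191). Drd5 on chromosome 5, the D5 dopamine receptor, read 7.89, 7.47 and 7.91 in CLP, against 9.40, 9.59 and 9.40 in DN3 and 8.86, 9.15 and 9.22 in DN4 (difference -1.51, SE 0.16, adjusted p = 0.0248). The nearest arrays of the groups were 1.13 log2 units apart for Atp8a2 and 0.95 for Drd5. A second, dimmer probe set of Drd5 gave -0.35.

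Zxda on chromosome X, a zinc finger protein, read 5.15, 5.00 and 5.02 in CLP, against 6.19, 6.77 and 6.06 in DN3 and 6.10, 6.33 and 6.59 in DN4. CLP was below background and the gene at least 1.64-fold lower (adjusted p = 0.0354). Zxdb, its near-identical neighbour, read 5.35, 5.39 and 4.81 in CLP, against 6.04, 6.42 and 6.30 in DN3 and 6.38, 6.02 and 6.41 in DN4 (adjusted p = 0.133). The signals of such copies may be mixed, since probes can match both.

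**Figure D2:**
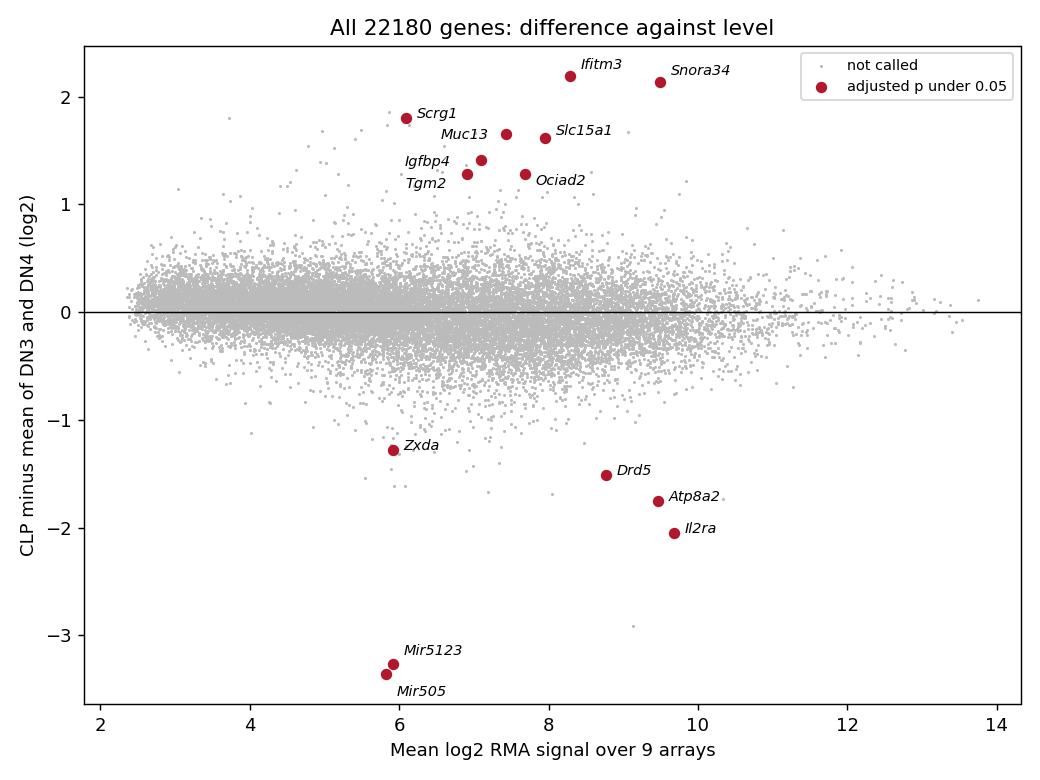
Difference between CLP and the mean of DN3 and DN4 (vertical axis, log2) against the mean log2 RMA signal over the 9 arrays (horizontal axis) for 22180 genes, with the 14 called genes in red. Called genes lie at the edge of the cloud, and Mir505 (-3.36) and Mir5123 (-3.27) are plotted lowest, with CLP under background for both.

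The test was also run against each fraction alone. Against DN3, 11 genes were called (0.0496%), 6 higher (0.0271%) and 5 lower (0.0225%), and all 11 were among the 14. Against DN4, 19 genes were called (0.0857%), 10 higher (0.0451%) and 9 lower (0.0406%), of which 13 were among the 14, Il2ra being the exception. Both sets shared 10 genes, and since they share the CLP arrays, the overlap is no independent support. The 6 further genes against DN4 were Ace, Acox2, Fv1, Gm20149, Ly6c1 and Zfp709, and all but Gm20149 and Ly6c1 are described below. Ociad2, Tgm2 and Zxda were called against DN4 and not against DN3 (adjusted p of 0.112 to 0.129 against DN3), and whether these gaps differ was not tested.

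Set beside the other lymphoma fractions, the CLP mean lay between the DN3 and DN4 mean and the DN2 and DN1 mean for 8 of the 14 genes, namely Ifitm3, Scrg1, Muc13, Slc15a1, Igfbp4, Tgm2, Atp8a2 and Drd5. For Ifitm3 and Scrg1 the gap between CLP and DN2 did not pass the test in the model of 15 arrays. Muc13 averaged 8.53 in CLP, 6.86 in DN3, 6.90 in DN4, 10.33 in DN2 and 10.99 in DN1. Igfbp4 averaged 8.03 in CLP, 6.74 in DN3, 6.51 in DN4, 9.82 in DN2 and 10.76 in DN1. Atp8a2 ran the other way, with 8.29 in CLP, 9.97 in DN3, 10.12 in DN4, 5.70 in DN2 and 5.69 in DN1. The other 6 genes were Il2ra, Mir505, Mir5123, Ociad2, Snora34 and Zxda, which did not lie between. For Mir505, Zxda and Ociad2, CLP differed from DN3 and DN4 on the same side as from DN2 and DN1, and each of these gaps passed the test in the model of 15 arrays (636 genes or 2.87% were called between CLP and DN2, 1726 or 7.78% between CLP and DN1). Mir5123 also read lower in CLP than in DN2 and DN1, and both gaps passed the test. It is left out because DN2 and DN1 lie near background, so no order is read. Il2ra read lower in CLP than in DN2 (-3.50) and DN1 (-0.73) as well, and both gaps passed the test. These comparisons share the CLP arrays. In bulk samples a mixture of cells and an intermediate level per cell cannot be told apart, and the same holds for fewer cells of a type and less RNA per cell.

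**Figure D3:**
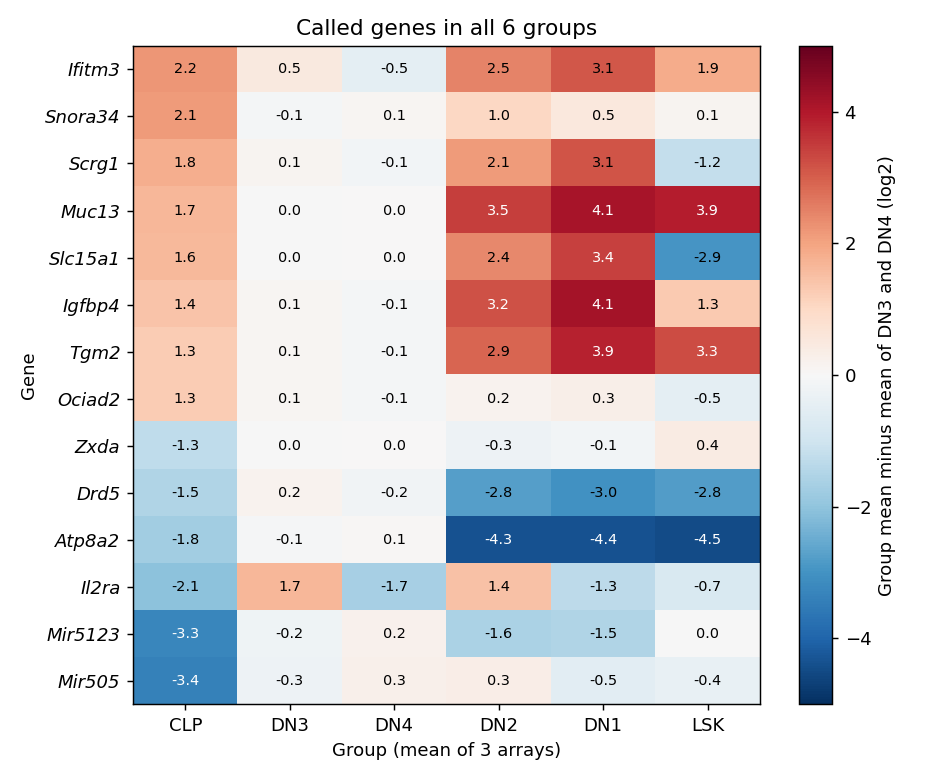
Group mean minus the mean of DN3 and DN4 (colour and printed number, log2) for the 14 called genes (rows) in CLP, DN3, DN4, DN2, DN1 and LSK (columns, 3 arrays each). Muc13, Igfbp4, Tgm2 and Slc15a1 are higher in CLP and higher still in DN2 and DN1, and Mir505 is low in CLP and in no other group.

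Below the threshold came genes whose CLP arrays were also separate from DN3 and DN4. Kit, the stem cell factor receptor and a sort marker, read 9.72, 9.36 and 9.22 in CLP, against 8.06, 8.22 and 7.90 in DN3 and 8.35, 8.06 and 8.18 in DN4 (difference 1.30, adjusted p = 0.0501). Fv1, a restriction gene against murine leukaemia viruses, read 6.26, 6.03 and 5.92 in CLP, against 7.15, 7.11 and 7.06 in DN3 and 7.31, 7.28 and 7.14 in DN4 (difference -1.10, adjusted p = 0.0506). Acox2, a peroxisomal oxidase of bile acid synthesis, read 7.21, 7.25 and 7.10 in CLP, against 5.98, 6.57 and 5.83 in DN3 and 6.17, 5.99 and 6.13 in DN4 (difference 1.07, adjusted p = 0.0506). These 3 genes lay just outside the threshold, and Ociad2 (adjusted p = 0.0407) and Tgm2 (0.0389) just inside it.

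Further differences with CLP above were 1.86 for Ctla2a, an inhibitor of cathepsin-like proteases (adjusted p = 0.0634), 1.06 for the beta-tubulin Tubb6 (0.0898) and 0.85 for the collagen-binding integrin chain Itga2 (0.0933). The long non-coding AW112010 and the pseudogene Alms1-ps2 also read higher on every CLP array (0.0933 each). Ctla2a was under background on 4 of the 6 DN3 and DN4 arrays and Ace on 1 CLP array. Both AW112010 and Alms1-ps2 were under background on all 6 DN3 and DN4 arrays. AW112010 was thus at least 1.48-fold higher by value, and for Alms1-ps2, which was under background on 2 of 3 CLP arrays too, no fold is given. With CLP below came Ace, the angiotensin-converting enzyme, at -1.30 (adjusted p = 0.0658), the zinc finger gene Zfp709 at -1.43 (0.0933), the glycosylation enzyme Alg10b at -0.98 (0.0933), Mfhas1 at -1.01 (0.0938), Mfsd4b4 at -1.01 (0.104), and the sialyltransferase St6gal1 at -1.03 (0.11). A second probe set of Zfp709 gave -0.44. Fbxl20 (-1.08, adjusted p = 0.114), Slc37a1 (-0.85, 0.126) and Cnpy3, a chaperone of Toll-like receptors (-0.78, 0.133), complete the named genes. None of these passed the test.

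CLP arrays differed more among themselves than the arrays of DN3 or DN4 did. The median SD of a gene over 3 arrays was 0.235 in CLP, against 0.156 in DN3 and 0.143 in DN4, and 185 genes had an SD over 1 in CLP, against 8 in DN3 and 10 in DN4. In 57.3% of genes the SD was larger in CLP than in either of the others. Correlations between arrays were 0.968 to 0.975 within CLP, 0.987 to 0.992 within DN3 and 0.99 to 0.992 within DN4. CLP arrays correlated with DN3 arrays at 0.974 to 0.981 and with DN4 arrays at 0.973 to 0.982. These ranges meet the one within CLP only at its top and reach above it. By this measure CLP arrays were no more like each other than like DN3 or DN4 arrays. The shares of genes above background were 50.2% to 53.2% on the CLP arrays and 51.5% to 54.1% on the others.

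**Figure D4:**
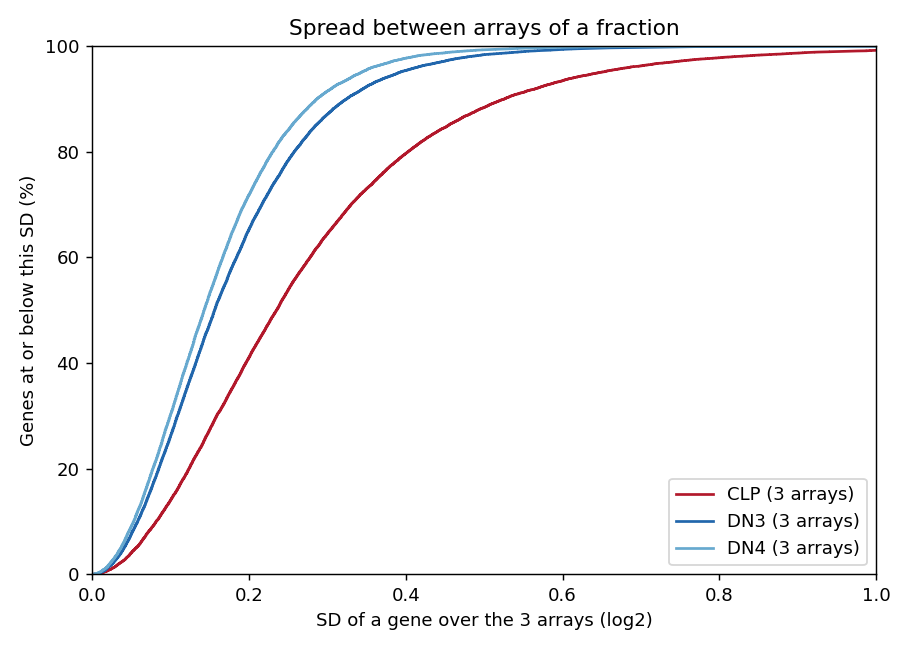
Share of the 22180 genes (vertical axis, %) whose SD over the 3 arrays of a fraction is at or below the value on the horizontal axis (log2), for CLP, DN3 and DN4. The CLP curve lies to the right, with a median SD of 0.235 against 0.156 in DN3 and 0.143 in DN4, and DN3 and DN4 run close together.

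Ddx5 was named after its values were seen. This RNA helicase gene read 7.90, 5.81 and 7.87 in CLP, against 10.04, 10.26 and 9.56 in DN3 and 10.18, 10.11 and 10.51 in DN4. The difference of -2.91 was the largest among genes with an adjusted p over 0.05, yet its SE was 0.50 and the gene was not called (adjusted p = 0.15). Cpa3, a mast cell protease also known from early progenitors, read 10.36, 9.41 and 10.78 in CLP, against 8.29, 8.77 and 8.19 in DN3 and 8.69, 8.57 and 8.57 in DN4 (difference 1.67, adjusted p = 0.17).

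The next 8 genes, of galectins, annexins, S100 proteins and the cytoskeleton, were picked after the values were seen and stand for no list. Lgals1, a galectin, read 7.11, 7.93 and 7.84 in CLP, against 6.32, 6.09 and 6.52 in DN3 and 5.69, 5.71 and 6.19 in DN4 (adjusted p = 0.11). S100a6, a calcium-binding protein, read 6.40, 6.04 and 7.44 in CLP and stayed below background in DN3 and DN4 (adjusted p = 0.17). Vim (difference 1.00, adjusted p = 0.201), Lsp1 (1.11, 0.0938) and Anxa2 (1.00, 0.133) were also separate. A second, dimmer probe set of Vim gave 0.35. S100a10 (0.21), S100a11 (0.07) and Lgals3 (0.25) overlapped.

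The RNA of the sort markers was set against the labels. Il7r, which encodes IL7Rα, read 8.31, 6.97 and 8.68 in CLP, against 8.75, 8.97 and 8.86 in DN3 and 8.45, 8.63 and 8.44 in DN4, so the RNA of this defining marker was not higher in CLP. Flt3, another gene of normal common lymphoid progenitors, averaged 4.68 in CLP and 4.96 in DN3 and DN4, below background, against 9.09 in LSK cells. Cd44 averaged 4.81 in CLP and 4.69 in DN3 and DN4, under background on all 9 arrays, and Cd4 and Cd8b1 overlapped between the groups. Cd8a read 4.88, 4.49 and 4.91 in CLP, against 5.71, 5.17 and 5.46 in DN3 and 5.22, 5.67 and 5.32 in DN4 (adjusted p = 0.235). All CLP arrays were below, but they and 4 of the 6 DN3 and DN4 arrays were under background. Kit was higher in CLP by value, as given above. The RNA of CD25 averaged 8.31 in CLP, above background, and was low beside DN3 (12.02) and DN2 (11.81). The averages of DN4 (8.71) and DN1 (9.04) were higher than that of CLP by less. The RNA of IL7Rα was above background too, and on average no higher than in DN3 or DN4, while that of FLT3 was below background. CLP is therefore used here as the name of a sort gate.

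Genes of T cell identity are given by their counts, without a test of the list. Of 17 measured T lineage genes, 0 were called by limma, 13 had an estimate below 0 and 6 an unadjusted p under 0.05, all lower (5.3% of all genes were), with a median of -0.13 (all genes, 0.01). All 3 CLP arrays were below for 5 of the 17 (4.22% over all genes), namely Cd28 (-0.94), Themis (-0.59), Gata3 (-0.43), Cd3e (-0.35) and Cd5 (-0.34). The level of Cd3e, a chain of the CD3 complex, was still 12.45, 12.64 and 12.50 in CLP, against 12.80, 12.92 and 12.83 in DN3 and 12.83, 12.94 and 12.98 in DN4. A second probe set of Gata3 went the other way (0.37).

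Notch receptors and targets had 13 of 19 genes below 0, with a median of -0.24. Il2ra, a Notch target as well as the sort marker, was the 1 call, and 4 genes had an unadjusted p under 0.05, all lower. Ptcra, the pre-TCR alpha chain, read 7.72, 8.43 and 8.10 in CLP, against 9.06, 8.72 and 9.14 in DN3 and 8.93, 8.99 and 9.14 in DN4 (difference -0.91, adjusted p = 0.207). Heyl, a Notch-induced repressor, read 8.79, 8.49 and 8.51 in CLP, against 9.09, 9.40 and 9.08 in DN3 and 9.59, 9.67 and 9.07 in DN4 (adjusted p = 0.236). For Dtx1 the 2 probe sets gave -0.34 and -1.69. Among the 11 pre-TCR, recombination and DN3 genes 0 were called (3 at an unadjusted p under 0.05, all lower), and Dntt, the polymerase that adds junctional nucleotides, differed by 0.34.

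Of the 23 lymphoid progenitor genes, 0 were called (1 higher and 2 lower at an unadjusted p under 0.05) and the median was -0.07. All CLP arrays were above for 2 of the 23 (2.69% over all genes), namely Lyl1 (0.51) and Mef2c (0.23). Mef2c averaged 4.90 in CLP and 4.67 in DN3 and DN4, under background. Of the 23 genes, 7 were below background on all 9 arrays. Among 17 stem and multipotent progenitor genes, 10 were below background on all 9 arrays, 0 were called (1 at an unadjusted p under 0.05, higher) and the median was 0.12. Cd34 averaged 5.00 in CLP and 5.19 in DN3 and DN4, against 11.10 in LSK cells.

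In the list of ALCL, JAK and STAT3 genes, 0 of 28 were called (3 higher and 1 lower at an unadjusted p under 0.05), with a median of 0.01. Junb, an AP-1 factor known from anaplastic large cell lymphoma, read 10.23, 9.97 and 10.08 in CLP, against 9.27, 9.50 and 9.01 in DN3 and 9.23, 9.31 and 8.93 in DN4 (difference 0.88, adjusted p = 0.156). Il21r (0.68, adjusted p = 0.197) and the feedback inhibitor Socs1 (0.52, 0.333) were also above on every CLP array, and Stat5a (-0.27) was below. Of 19 cytokine receptors, 0 were called (3 higher and 1 lower at an unadjusted p under 0.05, median 0.02).

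Cell cycle genes had 24 of 30 estimates above 0 (52.1% over all genes) and a median of 0.14. None was called by limma, 4 had an unadjusted p under 0.05, all higher, and only Ccne1 had its CLP arrays apart (0.50). Cdk1, the mitotic kinase, read 9.62, 10.02 and 10.56 in CLP, against 9.64, 9.91 and 9.67 in DN3 and 9.01, 9.09 and 9.22 in DN4, apart from DN4 and not from DN3. Array means over the list ran from 8.86 to 9.37 in CLP and from 8.73 to 9.43 in DN3 and DN4.

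Of 19 type I interferon response genes, a list that does not hold Ifitm3, 0 were called, 13 were above 0 and the median was 0.22. At an unadjusted p under 0.05, 5 were higher and 1 lower. Isg20 (0.62, adjusted p = 0.339), Oasl2 (0.63, 0.512) and Stat2 (0.44, 0.519) were among those above 0 and Ddx58 (-0.54) among those below, and no member had its CLP arrays apart from DN3 and DN4. The mean of the list was 7.08 to 7.32 on the CLP arrays and 6.90 to 7.10 on the others.

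Apoptosis regulators had a median of -0.22 over 17 genes. None was called (2 higher and 4 lower at an unadjusted p under 0.05, against 3.67% and 5.3% of all genes). All CLP arrays were below for 4 of the 17 (4.22% over all genes), namely Bak1 (-0.47), Xiap (-0.45), Bid (-0.42) and Bmf (-0.26). They were above for Pmaip1, the p53 target NOXA. Pmaip1 read 6.84, 7.36 and 6.99 in CLP, against 5.94, 6.02 and 6.45 in DN3 and 6.50, 6.53 and 6.24 in DN4 (0.78, adjusted p = 0.197). Among 21 quiescence and p53 target genes, Pmaip1 included, 0 were called (2 higher and 2 lower at an unadjusted p under 0.05, median -0.09).

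The remaining lists had no call. Their medians were 0.03 for 20 cytotoxic and NK genes, -0.03 for 14 gamma delta and innate-like T genes, -0.06 for 20 T cell activation and checkpoint genes, 0.06 for 21 MYC and ribosome biogenesis genes and -0.04 for 19 mitochondrial respiration genes. They were -0.02 for 19 glycolysis and hypoxia genes, 0.09 for 20 immediate early and heat shock genes, 0.06 for 17 unfolded protein and amino acid stress genes, -0.03 for 9 MHC class II genes and 0.03 for 18 chemokine receptors and homing genes. Between 0 and 3 members of each had an unadjusted p under 0.05. Among the 20 activation and checkpoint genes, all CLP arrays were below for 2 and above for 1 (4.22% and 2.69% over all genes). Those below were the inhibitory receptor Btla and Nr4a1 (-0.45, adjusted p = 0.53). Btla read 6.81, 6.10 and 6.84 in CLP, against 7.37 to 7.82 over DN3 and DN4 (adjusted p = 0.217). The one above was Havcr2 (0.23), which averaged 4.03 in CLP, under background.

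Of 83 markers of other cells that a sort could hold, 39 were under background on all 9 arrays, 5 had all CLP arrays above (6.02%, against 2.69% of all genes) and 1 all below (1.2%, against 4.22%). Those above were Adgre1 (0.38) and Mertk (0.40) of macrophages and Fcrla (0.20) of B cells, each under background on all 9 arrays, Cd83 (0.24) of dendritic cells and Cpa3, and the one below was Ighm (-0.39). Their part in the results was not tested. Mean levels over a list were 5.52 to 5.66 in CLP and 5.52 to 5.64 in DN3 and DN4 for 14 B cell markers (8 below background on all arrays), and 5.33 to 5.43 in CLP and 5.26 to 5.37 in DN3 and DN4 for 16 macrophage and monocyte markers (8 below background). Granulocyte and mast cell markers averaged 5.06 to 5.15 in CLP and 4.82 to 5.11 in DN3 and DN4 (10 of 16 below background), and Cpa3 was the member that stood out. Fcer1a and Ms4a2, defining markers of mast cells, were below background in CLP (3.61 and 4.36 on average) as in DN3 and DN4. Erythroid and megakaryocyte markers ran from 5.53 to 5.69 in CLP and from 5.43 to 5.61 in DN3 and DN4, with 4 of 11 below background. Dendritic cell markers ran from 6.04 to 6.26 in CLP and from 6.13 to 6.22 in DN3 and DN4 (3 of 11), and those of stroma and thymic epithelium from 6.19 to 6.43 in CLP and from 6.25 to 6.40 in DN3 and DN4 (6 of 15). No member of these 6 lists was called, and at an unadjusted p under 0.05 there were 3 higher macrophage markers, 1 higher each of the granulocyte and erythroid lists, and 1 lower B cell marker.

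**Figure D5:**
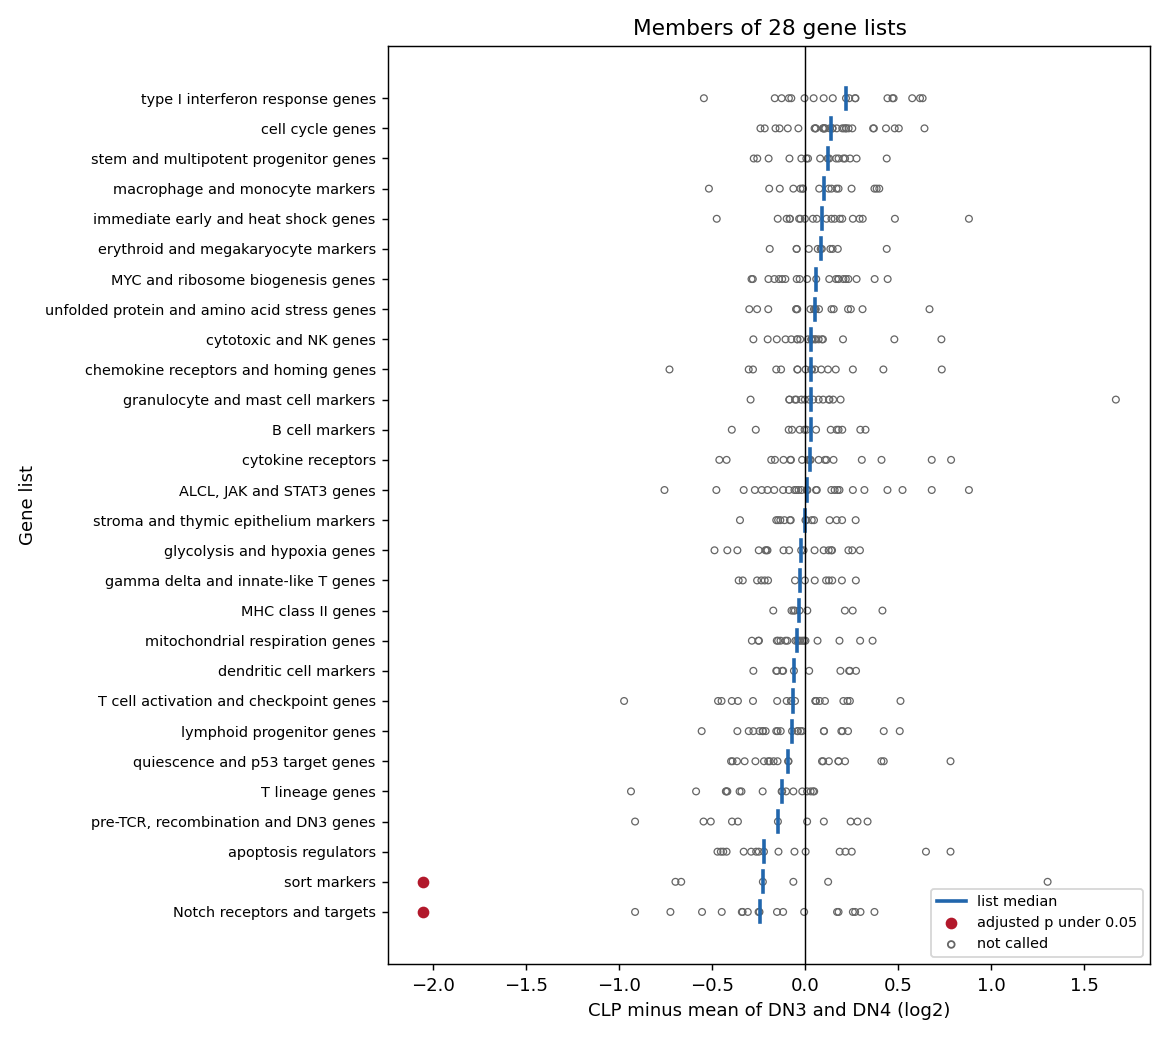
Difference between CLP and the mean of DN3 and DN4 (horizontal axis, log2) for each measured member of 28 gene lists (vertical axis), with list medians as bars and called genes as filled points. Medians lie between -0.24 and 0.22, and Il2ra (-2.05), a member of 2 lists, is the only call.

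The counts of calls rest on few arrays. Leaving out the DN3 and DN4 arrays of any 1 replicate number left 0 genes called higher by limma (379 to 482 at an unadjusted p under 0.05) and 1 or 2 called lower, whereas without CLP array 1 there were 119 higher and 113 lower. A model of the 9 arrays called 195 genes (0.879%) and one of the 15 lymphoma arrays 560 (2.52%), the 14 genes among them in both. All 14 differences kept their sign under each of the 14 alternatives, which is no separate support. Several alternatives leave the difference itself as it is. Leaving out arrays cannot reverse a gene whose CLP arrays all lie outside DN3 and DN4. Labels do not say which arrays share a mouse or a lymphoma, so p values measure the spread between these arrays.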

How the data were processed

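RNA of sorted cells was amplified with the WT Pico kit and hybridised to Affymetrix arrays, 3 per group in 6 groups. The deposited values are log2 signals per probe set that the authors made with oligo and RMA, per the submitters' processing notes, without versions in the sources used here. The values entered the fits unaltered, with 0 columns left aside. Of 41345 probe sets, 23521 carry 1 gene symbol, 1814 several and 16010 none. The first kind was used, and for each of 22180 genes the brightest probe set by its mean over all 18 arrays.

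Per gene, limma 3.58.1 in R 4.3.3 (lmFit and eBayes, two-sided tests, p values adjusted by Benjamini and Hochberg's method across the 22180 genes) compared the 3 CLP arrays with the 3 means of DN3 and DN4. Differences are CLP minus DN3 and DN4, SE is that of limma, and every p given for a gene is adjusted by limma. CLP against DN3 and against DN4 used 6 arrays each. The code was tested on simulated data. The build behind the probe sets was not stated, and genes are given by chromosome, while printed sequences and their coordinates are from RefSeq, GRCm38.p6. Signals under the level that 95% of olfactory receptor probe sets stay below count as background. For a gene under it on all CLP or all DN3 and DN4 arrays, the fold is a bound taken against that gauge, chosen after seeing the data, as were the fits of CLP against DN2 and DN1 and the fit over all probe sets.

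The groups, the members and the 28 lists (all named with their results in the text) were chosen with earlier results of these data known. Named genes are, per direction, up to 15 genes whose CLP arrays lie outside all DN3 and DN4 arrays, called ones first by size, then others by p, without predicted genes, small RNA genes and receptor segments, and besides the 5 members with the smallest p in every list and all sort markers. Mir505, Mir5123, Snora34, Kansl2, B4galt1, Ddx5, Zc3hc1, Lgals1, Lgals3, S100a6, S100a10, S100a11, Vim, Lsp1, Anxa2, Mir106b, Mir1929, Gm20149, Ly6c1 and the list members Cd5, Bmf, Mef2c and Havcr2 were named after their values were seen. Alternatives were a filter on low values (12721 genes), quantile normalization, the mean of a gene's probe sets, array weights, a robust prior with a trend, a block for the replicate number, 9 or 15 arrays in 1 model, and leaving out arrays in turn. With 3 arrays per group their number limits precision.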

Additional observations from a re-analysis of the deposited data

Results flagged for a closer look

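Probe sets without 1 gene symbol were outside the comparison of genes. In a limma fit over all 41345 probe sets, added after seeing the data, 28 of these 17824 probe sets were called at an adjusted p under 0.05, 6 higher and 22 lower in CLP than in DN3 and DN4, with differences from -3.37 to 4.60 on the log2 scale. In the same fit 8 probe sets with 1 symbol were called. They were looked at because the comparison of genes does not use them, and they are not named here. Of the 22 lower ones, 20 were under background on all 3 CLP arrays, and 5 of the 28 were under background on all 9 arrays, so these differences are not measured sizes. On 7 probe sets neither CLP nor DN3 and DN4 lay wholly under background.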

How the results depend on the processing

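Against 8 genes higher and 6 lower in CLP than in DN3 and DN4, the calls came to 11 and 8 with the filter on low values, 10 and 8 after quantile normalization, 8 and 5 with the mean of a gene's probe sets, and 6 and 7 with the trended and robust prior. With array weights, where the CLP arrays got weights of 0.394 to 0.54 and the DN3 and DN4 means 1.47 to 2.81, they were 21 and 16. With 9 arrays in 1 model they were 59 and 136 and with 15 arrays 164 and 396. Both models hold all 14 genes, and they count DN3 and DN4 of 1 number as separate samples and use more arrays for the spread. Leaving out 1 replicate gave 0 to 119 higher and 1 to 113 lower. Against DN3 (6 higher, 5 lower) it gave 0 to 16 higher and 3 to 28 lower. Against DN4 (10 higher, 9 lower) it gave 0 to 209 higher and 1 to 171 lower. The highest counts came without CLP replicate 1, and the lowest without an array of DN3 or DN4, where 323 to 537 genes were higher at an unadjusted p under 0.05 in the settings with 0 calls by limma. The cause of these shifts was not tested.

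With the replicate number as a block, 6 genes were higher and 4 lower, against DN3 2 higher and 4 lower, and against DN4 24 higher and 16 lower. Deviations of arrays with the same number correlated at 0.147, 0.091 and 0.251, and not every one was over 0.1. The main fit does not pair CLP with DN3 and DN4 by number. Whether the numbers mark a shared lymphoma cannot be told from these values. Every CLP array correlated best with its own number (other numbers, -0.19 to 0.029). The deviations are taken from the mean of each side, so these correlations depend on each other. What a shared number stands for was not tested. Over the 14 settings Mir5123 was called in 14. Ifitm3, Il2ra, Mir505, Slc15a1 and Snora34 were called in 11, and Muc13 and Scrg1 in 10. Atp8a2 was called in 9, Drd5, Igfbp4 and Zxda in 8, and Ociad2 and Tgm2 in 7. No named difference changed its sign, a change that most of these settings could not bring about.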

Other observations

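Other small RNA genes had CLP apart from DN3 and DN4 without passing the test. Of 478 miRNA genes, 16 had all CLP arrays above and 12 all below. Mir1929 and Mir106b, both below, were picked after their values were seen. Mir1929, inside the autophagy gene Atg5, read 5.68, 5.69 and 5.82 in CLP, against 6.78, 6.67 and 6.96 in DN3 and 7.07, 6.49 and 6.76 in DN4 (difference -1.06, adjusted p = 0.0634 by limma). Mir106b, inside the replication gene Mcm7, read 5.60, 5.22 and 5.62 in CLP, against 6.64, 6.43 and 6.33 in DN3 and 6.69, 6.45 and 6.47 in DN4 (difference -1.02, adjusted p = 0.11 by limma). CLP arrays 1 and 2, with a background of 5.685 and 5.625, had Mir106b under it, and Mir1929 was near it on array 1. These differences thus rest in part on values not measured above background. Among 74 snoRNA genes Snora34 was the call, 3 had all CLP arrays above (4.05%, against 2.69% of all genes) and 4 all below (5.41%, against 4.22%), and the median was -0.13. Of 86 ribosomal protein genes, 4 had all CLP arrays above (4.65%) and 0 all below, with 0 called by limma and a median of 0.04.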
